A study of Mus musculus with 6 samples.

Results

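Cytochrome P450 enzymes of families 1 to 4 were examined in RNA from isolated mouse glomeruli, the filtering units of the kidney. The members were all genes whose symbol starts with Cyp, followed by a family number from 1 to 4, a subfamily letter and a gene number, without pseudogenes. They numbered 81 of the 55401 genes in the deposited count table and fell into 21 subfamilies. Of these, 80 code for a P450 and Cyp4x1os is an antisense transcript. DKD, which the title of the series spells out as diabetic kidney disease, had 3 libraries, and Control had 3 libraries. The labels enter both names under genotype and give no strain, age, sex or way of inducing the disease. They do not say that each library came from its own mouse, so the p-values measure only the spread between these libraries. The totals were 73435328, 71154026 and 75328417 counts in DKD libraries 1 to 3, against 74239752, 72451052 and 83576494 counts in Control libraries 1 to 3.

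P450 enzymes are haem proteins that insert an oxygen atom into a substrate, with electrons passed on by P450 reductase. Families 1 to 3 are best known for drugs, toxins, steroids and arachidonic acid, and family 4 for the omega end of fatty acids and of eicosanoids. In the kidney some Cyp4a enzymes make hydroxyeicosatetraenoic acid, which narrows small arteries, while some Cyp2c and Cyp2j enzymes make epoxyeicosatrienoic acids, which widen them. Many of these genes are known from the proximal tubule, and in mice some differ between males and females.

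The sequences below are shown because reads from near-identical genes can be counted for the wrong copy. Each is the stretch of 30 bases, 10 codons, that codes for the haem-binding signature, read from the longest open reading frame of the GENCODE M21 transcripts and written 5′ to 3′ in lower case. Capitals mark the codon of the cysteine that holds the haem iron.
Cyp4a31: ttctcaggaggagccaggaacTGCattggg
Cyp4a10: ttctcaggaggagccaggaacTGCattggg
Cyp4a14: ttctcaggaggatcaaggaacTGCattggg
Cyp4a12a: ttctcaggaggagcaaggaacTGCattggg
Cyp4b1: ttttctgcagggcccaggaatTGCattggg
Cyp2d12: ttttcagcaggccgcagatcaTGCctgggg
Cyp2e1: ttttctgcaggaaagcgcgtgTGTgttgga
Cyp2j13: ttttcaatgggaaagcgagctTGCctcgga
Cyp2a4: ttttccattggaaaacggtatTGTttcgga
Cyp2a5: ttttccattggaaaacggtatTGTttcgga
Cyp4a31 and Cyp4a10 were identical over all 30 bases, and so were Cyp2a4 and Cyp2a5. Cyp4a31 shared 28 of the 30 bases with Cyp4a14, 29 with Cyp4a12a and 24 with Cyp4b1. Of the 80 coding members, 77 held the signature in this reading frame and 3 (Cyp2b10, Cyp2s1 and Cyp3a59) did not. The search used a fixed letter pattern and only the longest reading frame of each gene. A miss therefore does not mean that the enzyme lacks the signature.

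Over whole transcripts, other genes held 44.9% of the 31-base words of Cyp4a10, 32.0% of those of Cyp4a31, 62.8% of those of Cyp4a32, 62.2% of those of Cyp4a12a and 62.9% of those of Cyp4a12b. The share was 58.1% for Cyp2a4, 54.6% for Cyp2a5, 62.0% for Cyp2c68 and 64.9% for Cyp2c69. The counts of these genes are therefore uncertain as single genes, and sums over near-identical copies are given beside them. The words are shorter than the paired reads of 150 bases, and the share of reads that match several copies was not measured. The share of such words was 15.8% for Cyp2d12, 11.7% for Cyp4b1, 5.83% for Cyp2e1, 1.99% for Cyp4a14, 1.89% for Cyp2j13 and 0% for Cyp2c23.

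By the rule of more than 10 counts in 3 or more libraries, 47 of the 81 members were detected, and the same number entered the test. In family 1 these were 1 of 2 Cyp1a members and the single Cyp1b member. In family 2 they were 2 of 4 Cyp2a, 2 of 5 Cyp2b, 5 of 15 Cyp2c, 6 of 8 Cyp2d and 7 of 8 Cyp2j members, together with the single members of Cyp2e, Cyp2f, Cyp2r, Cyp2s, Cyp2t and Cyp2u. The single members of Cyp2g and Cyp2w did not reach it. In family 3 they were 2 of 9 Cyp3a members. In family 4 they were 6 of 8 Cyp4a, 7 of 9 Cyp4f and 0 of 2 Cyp4x members, with the single members of Cyp4b and Cyp4v. The families thus contributed 2 of 3, 28 of 48, 2 of 9 and 15 of 21 members.

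Of the 34 members below the rule, 12 were at 0 in every library: Cyp2a22, Cyp2c29, Cyp2c39, Cyp2c50, Cyp2c54, Cyp2c66, Cyp2g1, Cyp2w1, Cyp3a44, Cyp4a29, Cyp4a30b and Cyp4x1os. The other 22 had some counts, up to 35 in a library. They were Cyp1a2, Cyp2a12, Cyp2b13, Cyp2b19, Cyp2b23, Cyp2c37, Cyp2c40, Cyp2c55, Cyp2c67, Cyp2c70, Cyp2d11, Cyp2d40, Cyp2j12, Cyp3a16, Cyp3a25, Cyp3a41a, Cyp3a41b, Cyp3a57, Cyp3a59, Cyp4f37, Cyp4f40 and Cyp4x1. Just inside the rule, Cyp2t4 had 20, 20 and 0 counts in the DKD libraries and 0, 39 and 0 counts in the Control libraries. Just outside it, Cyp2c55 had 0, 4 and 17 counts in the DKD libraries and 0, 20 and 0 counts in the Control libraries. A count of 0 allows up to 3 counts, which is between 0.0359 and 0.0448 CPM in these libraries (CPM, counts per 1000000 counts of a library), and this limit covers counting error only.

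Levels are in CPM after TMM scaling, and a level printed with ± is a mean with its SD over the 3 libraries of a group. All 81 members together held 6763, 6716 and 5694 CPM in the DKD libraries and 7185, 8592 and 13795 CPM in the Control libraries. The DKD libraries thus lay below all Control libraries, and Control library 3 stood well above the other two. Per kilobase of transcript, Cyp4a10, Cyp4b1, Cyp4a14 and Cyp2j5 had the highest mean levels among the members in DKD, at 427, 409, 400 and 372 CPM per kilobase. In Control, Cyp4b1, Cyp2e1, Cyp2j5 and Cyp2a4 had the highest, at 1582, 837, 553 and 283 CPM per kilobase.

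**Figure D1:**
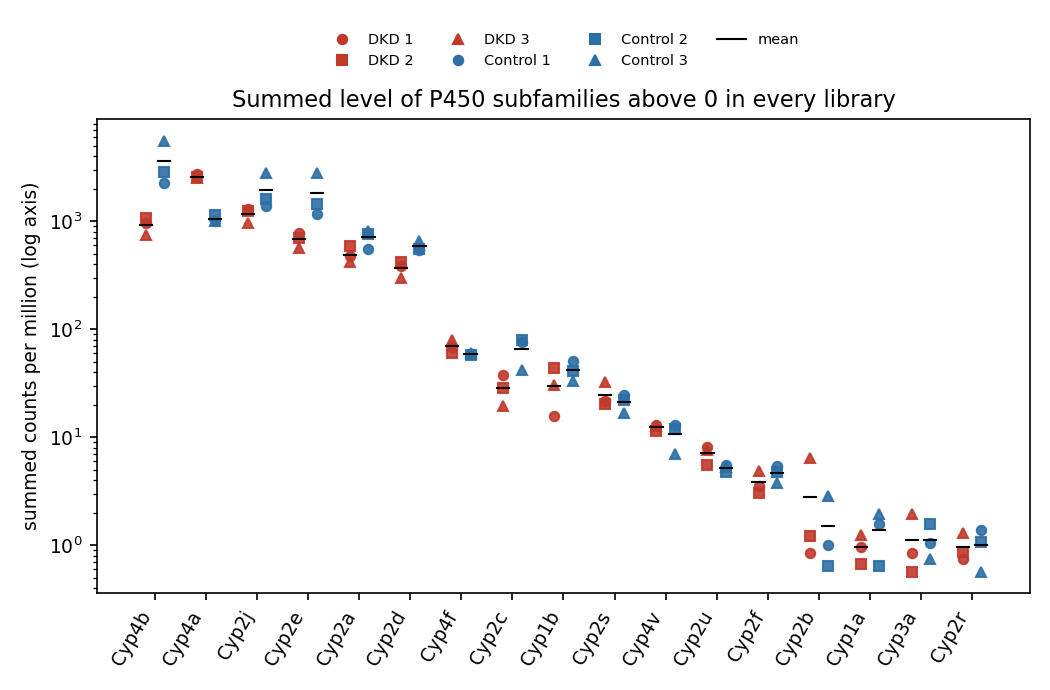
Summed CPM of each P450 subfamily on a log axis, with 1 point per library, DKD (red) left of Control (blue), and a bar at the mean. Cyp2g and Cyp2w (at 0), and Cyp2t and Cyp4x (at 0 in some libraries), are left out. The Cyp4a sum lay between 2496 and 2714 CPM in DKD and between 1008 and 1129 CPM in Control, and the Cyp4b, Cyp2e and Cyp2d sums lay lower in DKD than in Control in every library.

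The question put to each gene was whether its level differed between DKD and Control. With edgeR's quasi-likelihood test and Benjamini-Hochberg adjustment over the 19717 genes tested, 3 of the 47 members tested (6.38%) passed an adjusted p of 0.05. Across all genes 228 passed, or 1.16%, with 0.725% higher and 0.431% lower in DKD. Cyp4a31 rose, and Cyp2d12 and Cyp2c68 fell. Of these, Cyp2c68 had 0 counts in every DKD library and entered the test only through the Control libraries, where it is higher. The count of members, like that of all genes, depended on single libraries. The member count was 0 without DKD library 1, DKD library 3, Control library 1 or Control library 2. It was 1 (Cyp2c68) without DKD library 2, and 6 without Control library 3 (Cyp4a31, Cyp4a10, Cyp4a14, Cyp4b1, Cyp2d12 and Cyp2c68). Over all genes, the same fits called 4 of 20501 without DKD library 1 and 10 of 20383 without DKD library 3. They called 1 of 20288 without Control library 1 and 13 of 20339 without Control library 2. Without DKD library 2 the count was 298 of 20449, and without Control library 3 it was 386 of 20515.

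At an adjusted p under 0.1, 11 of the 47 members passed (23.4%; 3 higher and 8 lower in DKD), against a background of 7.50% of all genes. At an unadjusted p under 0.05, 22 of the 47 passed (46.8%), against 22.6% of all genes. DESeq2 called 18 of the 41 members to which it gave an adjusted p (43.9%; 7 higher and 11 lower), against a background of 14.0%. In 23 of the 47 members (48.9%; 11 higher and 12 lower) the DKD and Control libraries did not overlap, against 30.7% of all genes tested. Each of these counts includes Cyp2c68, and those by unadjusted p and by overlap also include Cyp2c65. These genes entered the test only through the group where they are higher. Near-identical copies, which are not independent of one another, count as separate members throughout. The median log2 fold change of the 47 was −0.06, with 22 above 0 and 25 below it, and over all genes tested it was 0.00.

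**Figure D2:**
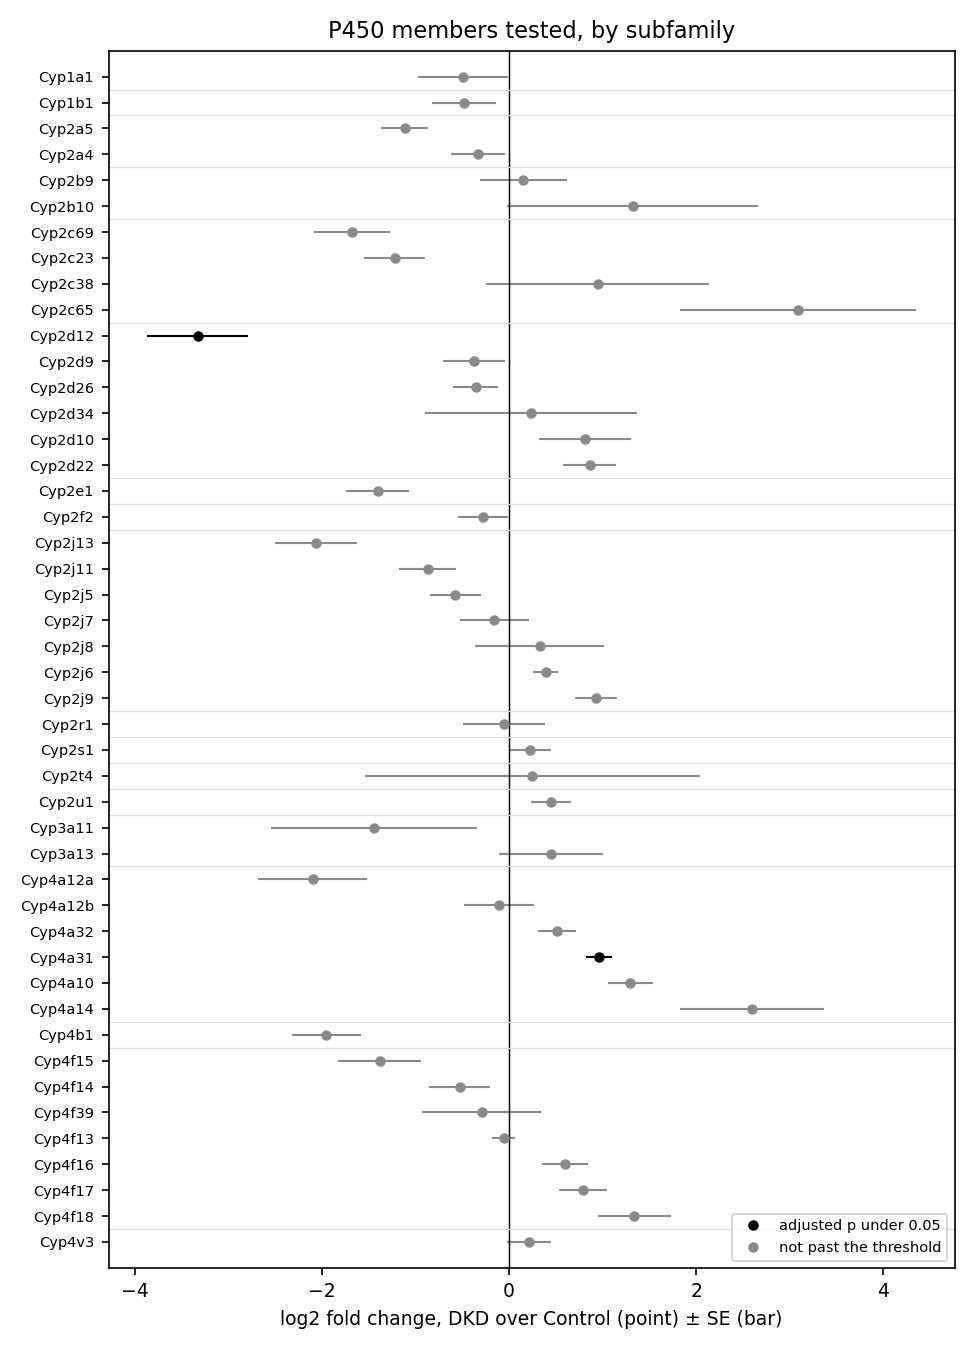
Log2 fold changes (DKD over Control) of 46 of the 47 members tested, grouped by subfamily, as points with bars of 1 standard error. Cyp2c68 is left out because its DKD libraries were all at 0, and the values run from −3.32 for Cyp2d12 to 3.09 for Cyp2c65, which had at most 28 counts in a library.

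The Cyp4a genes code for omega-hydroxylases of fatty acids, and only some of them act well on arachidonic acid. Together they held 2714, 2539 and 2496 CPM in the DKD libraries, against 1009, 1129 and 1008 CPM in the Control libraries. The means were 2583 ± 116 CPM in DKD and 1049 ± 69.7 CPM in Control, so for this sum the gap between the groups was far wider than the spread within either. Single members varied more within Control, with an SD of 134 CPM for Cyp4a14 and 157 CPM for Cyp4a12a. Control library 3 was the lowest Control library for Cyp4a14 (22.9 CPM) and the highest for Cyp4a12a (357 CPM), and such opposite departures offset each other in the sum. Of the 6 Cyp4a members tested, 1 rose, none fell, and 4 had positive fold changes.

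Cyp4a31, a Cyp4a copy that shares a large part of its sequence with Cyp4a10 and Cyp4a32, had 587, 571 and 493 CPM in the DKD libraries and 270, 277 and 302 CPM in the Control libraries. It was the only member to rise past the threshold, with a log2 fold change of 0.96 ± 0.14 (SE; edgeR adjusted p 0.0353). The call was lost without any one of 5 of the libraries and held without Control library 3, while the fold change stayed between 0.83 and 1.03 over the 15 alternatives tried. Cyp4a10, a fatty acid omega-hydroxylase known as a target of the receptor PPARA in mice, had 816, 1024 and 863 CPM in DKD and 384, 464 and 252 CPM in Control. Its groups did not overlap, and its log2 fold change of 1.30 ± 0.24 had an edgeR adjusted p of 0.0567. Because reads could be divided differently among Cyp4a10, Cyp4a31 and Cyp4a32, their sum was also taken. It was 1462 ± 128 CPM in DKD and 657 ± 93.7 CPM in Control, again without overlap.

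Cyp4a14, another omega-hydroxylase and PPARA target, had 1214, 866 and 1042 CPM in DKD and 207, 285 and 22.9 CPM in Control. Control library 3 lay far below the other two, and the edgeR adjusted p of its log2 fold change (2.60 ± 0.77) was 0.117. Without Control library 3 the fold change was 2.08. Cyp4a14 shares few words with other genes. Cyp4a32, at a much lower level, had 8.23, 12.1 and 11.2 CPM in DKD and 6.24, 7.77 and 8.03 CPM in Control, with a log2 fold change of 0.51 ± 0.21 (adjusted p 0.198).

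Cyp4a12a, the main renal maker of hydroxyeicosatetraenoic acid in male mice and known to depend on androgens, had 36.0, 40.6 and 47.9 CPM in DKD and 108, 67.1 and 357 CPM in Control. The groups did not overlap, but Control library 3 was several-fold above the other Control libraries. The log2 fold change was −2.10 ± 0.58 (edgeR adjusted p 0.102), and −1.08 without Control library 3. Its near copy Cyp4a12b had 53.2, 25.5 and 40.0 CPM in DKD and 33.6, 28.4 and 65.8 CPM in Control, with full overlap and a log2 fold change of −0.11 ± 0.37. The sum of both was 81.1 ± 12.9 CPM in DKD and 220 ± 178 CPM in Control.

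Cyp4b1, known for activating some inhaled and plant toxins and as an androgen-responsive gene of the mouse kidney, had the highest Control level of any member in CPM. It had 956, 1069 and 742 CPM in the DKD libraries and 2270, 2866 and 5573 CPM in the Control libraries. The highest DKD library lay far below the lowest Control library. The log2 fold change was −1.95 ± 0.37 (edgeR adjusted p 0.0569). Without Control library 3 the fold change was −1.48.

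In the RefSeq gene order on chromosome 4 (GRCm38.p6), the members run Cyp4x1, Cyp4a29, Cyp4a12a, Cyp4a12b, Cyp4a30b, Cyp4a14, Cyp4a10, Cyp4a31, Cyp4a32 and Cyp4b1. The 4 neighbours from Cyp4a14 to Cyp4a32 each had every DKD library above every Control library. Cyp4a12a before them and Cyp4b1 after them had every DKD library below every Control library. Neighbouring copies that share sequence are not independent of one another.

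**Figure D3:**
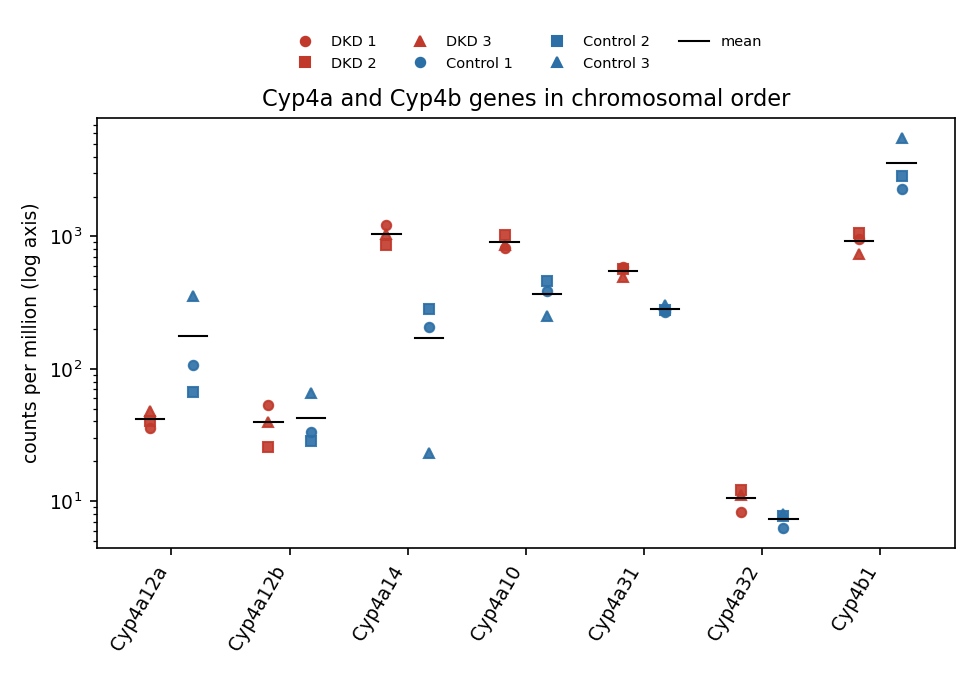
CPM of the 7 tested Cyp4a and Cyp4b genes on a log axis, ordered as they lie on chromosome 4, with 1 point per library, DKD (red) left of Control (blue), and a bar at the mean. Cyp4a14, Cyp4a10, Cyp4a31 and Cyp4a32 lay higher in DKD in every library, Cyp4a12a and Cyp4b1 lay lower, and Control library 3 (triangle) was at 22.9 CPM for Cyp4a14 and at 5573 CPM for Cyp4b1.

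The Cyp4f genes, whose enzymes inactivate leukotrienes and hydroxylate fatty acids at the omega end, summed to 69.4 ± 9.03 CPM in DKD and 59.0 ± 1.21 CPM in Control. None of the 7 members tested passed the threshold. Cyp4f13, the member with the highest level, averaged 32.4 ± 1.59 CPM in DKD and 33.7 ± 4.31 CPM in Control, with a log2 fold change of −0.06 ± 0.12. Cyp4f18, known from neutrophils, had 1.96, 2.69 and 4.18 CPM in DKD and 1.02, 1.57 and 0.899 CPM in Control (log2 fold change 1.34 ± 0.39, edgeR adjusted p 0.113).

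Beside it, the 18 leukocyte markers tested had 14 fold changes above 0 and none past the threshold. They held 0.0152% to 0.0351% of the counts in DKD and 0.0111% (Control library 3) to 0.0293% in Control. Their part in the Cyp4f18 value was not tested. Cyp4f17 (0.79 ± 0.26, adjusted p 0.136) and Cyp4f16 (0.60 ± 0.25, adjusted p 0.207) were higher in every DKD library, and Cyp4f15 (−1.38 ± 0.44, adjusted p 0.134) was lower in every DKD library. Cyp4f14 and Cyp4f39 had log2 fold changes of −0.53 ± 0.33 and −0.29 ± 0.63. Cyp4v3, whose human counterpart is known for fatty acid handling in the eye, averaged 12.4 ± 0.721 CPM in DKD and 10.6 ± 3.16 CPM in Control, where library 3 was the lowest at 7.04 CPM.

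Among the epoxygenases, the Cyp2j genes summed to 1284, 1232 and 969 CPM in DKD and 1393, 1607 and 2777 CPM in Control. No Cyp2j member passed the threshold, and members differed in direction. Cyp2j5, the abundant arachidonate epoxygenase of mouse kidney, had 945, 913 and 757 CPM in DKD and 962, 1095 and 1831 CPM in Control. Its lowest Control library lay just above its highest DKD library, and the log2 fold change was −0.57 ± 0.27 (edgeR adjusted p 0.259), and −0.24 without Control library 3.

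Cyp2j13 had 107, 108 and 59.3 CPM in DKD and 216, 294 and 639 CPM in Control. Every DKD library lay below every Control library, the log2 fold change was −2.06 ± 0.44 (edgeR adjusted p 0.0640), and it was −1.48 without Control library 3. Cyp2j11 lay the same way, with 105, 127 and 62.6 CPM in DKD and 146, 151 and 241 CPM in Control (−0.87 ± 0.30, adjusted p 0.153). Cyp2j9 lay the other way, with 53.0, 30.1 and 32.6 CPM in DKD and 22.5, 18.8 and 19.4 CPM in Control (0.93 ± 0.22, adjusted p 0.0809). So did Cyp2j6, with 70.0, 50.9 and 56.4 CPM in DKD and 45.2, 45.9 and 44.1 CPM in Control (0.39 ± 0.13, adjusted p 0.151). Cyp2j7 and Cyp2j8, both under 3 CPM, had log2 fold changes of −0.16 ± 0.37 and 0.33 ± 0.69.

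Of the 15 Cyp2c genes, Cyp2c23, a renal epoxygenase, carried nearly all of the Cyp2c counts. It had 36.6, 28.1 and 18.1 CPM in DKD and 75.0, 77.7 and 40.1 CPM in Control, without overlap, and its log2 fold change was −1.22 ± 0.33 (edgeR adjusted p 0.0957). Cyp2c68 had 0 counts in all 3 DKD libraries and 51, 59 and 34 counts in Control libraries 1 to 3, or 0.610, 0.729 and 0.449 CPM. It fell, with an edgeR adjusted p of 0.0370, and was at least 13.9-fold lower in DKD with a floor of 3 counts per library. It entered the test only through the Control libraries.

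Cyp2c69, which lies in the same run of copies as Cyp2c68, had 0.448, 0.291 and 0.308 CPM in DKD and 0.885, 1.00 and 1.47 CPM in Control (−1.67 ± 0.41, adjusted p 0.0823). Summed over Cyp2c40, Cyp2c67, Cyp2c68 and Cyp2c69, the libraries held 36, 27 and 26 counts in DKD and 129, 148 and 149 counts in Control. The DKD sums lay below the Control sums in every library, and none of these 4 copies is abundant. Cyp2c65 had 12, 28 and 15 counts in DKD and 0, 7 and 0 counts in Control and entered the test only through DKD (adjusted p 0.198). Cyp2c38 had 41, 0 and 20 counts in DKD and 14, 15 and 8 counts in Control.

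**Figure D4:**
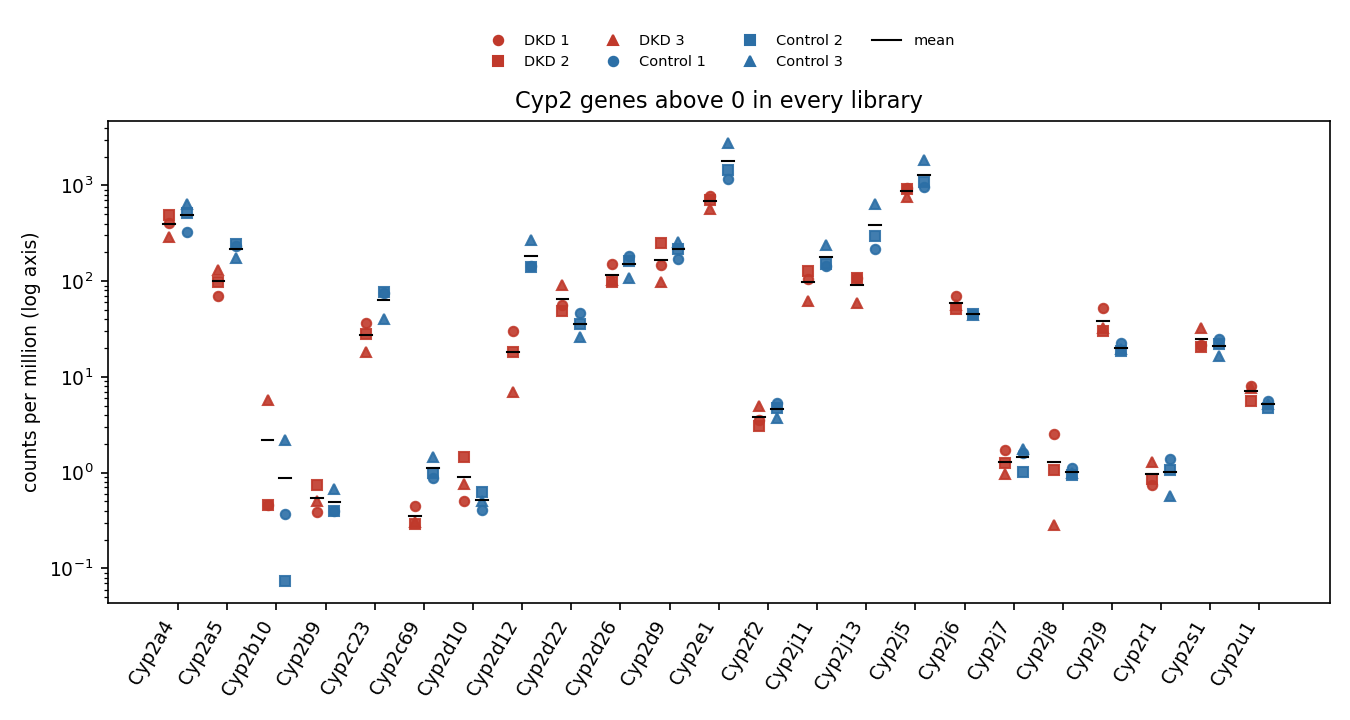
CPM of the 23 tested Cyp2 genes above 0 in every library, on a log axis, with 1 point per library, DKD (red) left of Control (blue), and a bar at the mean. Cyp2c38, Cyp2c65, Cyp2c68, Cyp2d34 and Cyp2t4 had a library at 0 and are left out. Cyp2d12 averaged 18.4 CPM in DKD and 184 CPM in Control without overlap, while Cyp2d9, its neighbour, overlapped between the groups.

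Cyp2d12, a member of the mouse Cyp2d cluster on chromosome 15, had 29.9, 18.3 and 6.93 CPM in the DKD libraries and 145, 141 and 266 CPM in the Control libraries. It fell, with means of 18.4 ± 11.5 CPM in DKD and 184 ± 71.1 CPM in Control, and its log2 fold change was −3.32 ± 0.54 (edgeR adjusted p 0.0443). The highest DKD library lay far below the lowest Control library. The call was lost when any library other than Control library 3 was left out, and the fold change ranged from −3.87 to −2.93 over the 15 alternatives.

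Its neighbour Cyp2d9, a steroid hydroxylase known for male-biased expression in mouse liver, had 149, 249 and 99.1 CPM in DKD and 170, 214 and 259 CPM in Control, with a log2 fold change of −0.37 ± 0.33 (adjusted p 0.549). Cyp2d9 and Cyp2d12 together held 184 ± 80.6 CPM in DKD and 398 ± 112 CPM in Control. Cyp2d26, the member of the cluster with the highest level per kilobase, had 149, 98.7 and 103 CPM in DKD and 181, 161 and 107 CPM in Control (−0.35 ± 0.24, adjusted p 0.428). Cyp2d22, at the other end of the cluster, lay higher in every DKD library, with 56.4, 48.5 and 90.6 CPM in DKD and 46.0, 35.5 and 26.0 CPM in Control (0.86 ± 0.29, edgeR adjusted p 0.141). Cyp2d10 and Cyp2d34 were under 2 CPM, with log2 fold changes of 0.81 ± 0.49 and 0.24 ± 1.13.

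Cyp2e1, which oxidises ethanol, acetone and small solvents, had 779, 698 and 571 CPM in DKD and 1175, 1455 and 2791 CPM in Control. Every DKD library lay below every Control library, and the log2 fold change was −1.40 ± 0.34 (edgeR adjusted p 0.0818). Without Control library 3 it was −0.95.

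Cyp2a5, the mouse coumarin hydroxylase, had 70.1, 98.3 and 132 CPM in DKD and 232, 245 and 173 CPM in Control, without overlap (−1.12 ± 0.25, edgeR adjusted p 0.0711). Its near copy Cyp2a4, a testosterone hydroxylase, had 401, 486 and 287 CPM in DKD and 325, 509 and 640 CPM in Control, with overlap (−0.33 ± 0.29, adjusted p 0.550). Their sum was 491 ± 84.5 CPM in DKD and 708 ± 134 CPM in Control. The promoters of this pair are shown because nearly the same sequence stands before both genes. Each is 299 bases around the RefSeq start on GRCm38.p6, plus strand, at chr7:26306943-26307241 for Cyp2a4 and chr7:26835089-26835387 for Cyp2a5. Capitals mark the 5 bases at which they differ, and the other 294 are identical.
Cyp2a4: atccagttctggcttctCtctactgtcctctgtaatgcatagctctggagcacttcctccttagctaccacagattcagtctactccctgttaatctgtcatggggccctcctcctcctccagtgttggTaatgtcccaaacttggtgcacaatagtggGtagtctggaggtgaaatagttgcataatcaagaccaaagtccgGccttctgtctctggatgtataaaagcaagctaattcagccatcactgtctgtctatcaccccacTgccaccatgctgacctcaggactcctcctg
Cyp2a5: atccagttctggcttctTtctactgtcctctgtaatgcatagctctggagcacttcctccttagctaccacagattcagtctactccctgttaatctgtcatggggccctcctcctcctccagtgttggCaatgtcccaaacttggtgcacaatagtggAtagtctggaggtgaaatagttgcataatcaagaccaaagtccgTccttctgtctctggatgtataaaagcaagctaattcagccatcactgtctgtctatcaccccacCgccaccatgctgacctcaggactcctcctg
Both hold TATAAA, the core of the TATA box.

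RefSeq promoters, 250 bases before to 50 after a start, were found for 66 of the 81 members and 35 of the 47 tested. Searched on both strands, TATAAA stood in 29 of the 66 (43.9%), against 15.7% of all 27025 promoters in the table. GCGTG, the core that the dioxin receptor AHR binds, stood in 13 (19.7%), against 35.2% of all promoters. A pair of AGGNCA with 1 base between, the kind of repeat that PPAR receptors bind, stood in 3 (4.55%; Cyp2d9, Cyp2d10 and Cyp2d40), against 0.451% of all promoters. No one of these motifs lies within another, and they are matches of letters within these windows. The 3 genes with the repeat all lie in the Cyp2d cluster on chromosome 15, and Cyp2d40 was below the count rule. Promoters of related copies are not independent of one another, and this limits the shares of all these motifs.

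Genes known for induction by foreign compounds differed widely in level. Cyp1a1, induced through AHR, had 0.956, 0.679 and 1.25 CPM in DKD and 1.47, 0.642 and 1.94 CPM in Control. Cyp1b1, another AHR target that also hydroxylates oestrogens, had 15.7, 43.5 and 30.7 CPM in DKD and 50.5, 41.5 and 33.4 CPM in Control, with a log2 fold change of −0.48 ± 0.35 (edgeR adjusted p 0.455). Of the 5 other AHR targets tested, 4 had fold changes above 0 and none passed the threshold, and the smallest p belonged to Nqo1 (0.91 ± 0.38, adjusted p 0.215) and Ugt1a6a (1.07 ± 0.45, adjusted p 0.220).

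Cyp2b10, induced through the receptor CAR, had 0.463, 0.457 and 5.69 CPM in DKD and 0.371, 0.0741 and 2.21 CPM in Control, with library 3 the highest in each group. Cyp2b9 had a log2 fold change of 0.15 ± 0.46. Cyp3a11, induced through the receptor PXR in liver, had at most 14 counts in a DKD library and 40 in a Control library. Cyp3a13 had 0.852, 0.360 and 1.58 CPM in DKD and 0.789, 0.717 and 0.542 CPM in Control. With 3 libraries per group, no difference was detectable in these genes.

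The remaining Cyp2 members are single-gene subfamilies. Cyp2s1, linked to retinoic acid, had 21.7, 20.4 and 32.4 CPM in DKD and 24.8, 22.1 and 16.7 CPM in Control (0.23 ± 0.22, edgeR adjusted p 0.589). Cyp2u1, a hydroxylase of long-chain fatty acids, had 8.11, 5.55 and 7.58 CPM in DKD and 5.57, 4.73 and 5.26 CPM in Control (0.45 ± 0.21, adjusted p 0.262). Cyp2f2, known from the club cells of the mouse airway, had 3.53, 3.08 and 4.91 CPM in DKD and 5.38, 4.78 and 3.74 CPM in Control. Cyp2r1, a hydroxylase of vitamin D, averaged 0.970 ± 0.294 CPM in DKD and 1.01 ± 0.408 CPM in Control (−0.05 ± 0.44), and Cyp2t4 had a log2 fold change of 0.25 ± 1.79.

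The 18 genes of electron donors and haem supply gave 10 fold changes above 0 and 8 below, with a median of 0.08 and none past the threshold. Por, the P450 reductase, had 213, 233 and 201 CPM in DKD and 209, 220 and 423 CPM in Control, and was picked out after its values were seen. Cyb5b, a cytochrome b partner, had 299, 329 and 251 CPM in DKD and 438, 440 and 491 CPM in Control, without overlap (−0.64 ± 0.15, edgeR adjusted p 0.0775). Cpox, an enzyme of haem synthesis, had 54.0, 59.7 and 43.1 CPM in DKD and 77.8, 92.9 and 143 CPM in Control (−0.999 ± 0.241, adjusted p 0.0805).

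Of 21 tested receptors and factors that regulate P450 genes, 1 rose and none fell. Cebpb, a transcription factor of acute-phase and metabolic genes, had 74.0, 61.9 and 99.0 CPM in DKD and 25.7, 29.7 and 21.1 CPM in Control (1.62 ± 0.21, edgeR adjusted p 0.0263). Ppara, the receptor behind Cyp4a10 and Cyp4a14 in mice and picked out after its values were seen, had 10.4, 15.6 and 13.4 CPM in DKD and 24.3, 27.7 and 36.9 CPM in Control. It thus lay lower in every DKD library (−1.18 ± 0.21, adjusted p 0.0527).

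Of 22 other PPARA target genes, 7 rose and none fell (31.8%, against 0.725% of all genes tested that rose), 18 had fold changes above 0, and the median was 0.90. The list was chosen with earlier results of these data known, and the part of PPARA in the P450 values was not tested. Pdk4, which turns off pyruvate oxidation, rose by a log2 fold of 2.50 ± 0.33 (adjusted p 0.0282). Acot2, a mitochondrial acyl-CoA thioesterase, rose by 1.68 ± 0.18 (adjusted p 0.0192), and Vnn1, a pantetheinase, by 1.49 ± 0.14 (adjusted p 0.0169). Vnn1 had 309, 278 and 351 CPM in DKD and 117, 106 and 112 CPM in Control. The count of 7 was 9 without Control library 3, 6 without DKD library 2, and 0 without any one of the other 4 libraries, while the median stayed between 0.82 and 1.05. Of 15 other enzymes of arachidonate metabolism, none rose and 1 fell. This was Tbxas1, thromboxane synthase and itself a P450 of another family, with 4.44, 4.57 and 3.34 CPM in DKD and 20.3, 16.9 and 13.1 CPM in Control (−2.02 ± 0.22, adjusted p 0.0192). The calls of Tbxas1 and Cebpb held without Control library 3 or DKD library 2 and were lost without any one of the other 4 libraries.

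Markers of other cell types moved beside these values. The 30 proximal tubule markers held 3.70%, 3.80% and 3.04% of the counts in DKD and 3.93%, 4.12% and 6.20% in Control, with 26 fold changes below 0, 4 past the threshold, all lower in DKD, and a median of −0.67. Without Control library 3 the median was −0.33, with 5 lower and 2 higher past the threshold; without DKD library 1, DKD library 3 or Control library 1 none passed, without Control library 2 there were 2 lower, and without DKD library 2 there were 2 lower and 1 higher. The libraries labelled as glomeruli thus held tubule RNA, and none of the markers was at 0. In bulk RNA, fewer cells of a type and less RNA per cell cannot be told apart. The 20 podocyte markers, of the glomerulus itself, held 0.0916% to 0.108% in DKD and 0.112% to 0.173% in Control, with 18 fold changes below 0 and none past the threshold.

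The 14 hepatocyte markers, of a tissue rich in P450, held 0.0625% to 0.0683% in DKD and 0.0290% (Control library 3) to 0.0526% in Control. Of the 11 tested, 9 had fold changes above 0, 5 had an unadjusted p under 0.05 and 1 rose by the edgeR test, with a median of 1.51. That median ran from 0.58 (without DKD library 2) to 1.55 (without Control library 2), and the call held without Control library 3 or DKD library 2 but not without any one of the other 4 libraries. Ttr, the most abundant of them per kilobase, had 323, 221 and 164 CPM in DKD and 57.7, 69.7 and 104 CPM in Control (1.62 ± 0.31, edgeR adjusted p 0.0573). Alb, a defining hepatocyte gene picked out after its values were seen, had 10.6, 7.49 and 7.60 CPM in DKD and 8.50, 8.36 and 8.48 CPM in Control (0.02 ± 0.19). Markers of glomerular endothelium (14), of mesangium and smooth muscle (13), and of loop, distal tubule and collecting duct (14) had medians of −0.30, −0.18 and −0.16, with 1 of these genes past the threshold, a mesangium and smooth muscle marker that was lower in DKD. With 1 library left out, the endothelial median ran from −0.07 (without DKD library 1) to −0.47 (without Control library 3). The mesangial median ran from −0.11 (without Control library 1) to −0.39 (without DKD library 3), and that of loop, distal tubule and collecting duct from −0.06 (without DKD library 1) to −0.19 (without Control library 3). The mesangial call was lost without DKD library 1, DKD library 3, Control library 1 or Control library 2. Without Control library 3 there were 2 mesangial markers lower, and 1 higher and 1 lower in loop, distal tubule and collecting duct. The part of any of these cell types in the P450 values was not tested.

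Several of the members, among them Cyp4a12a, Cyp4b1 and Cyp2j5, are known for a male or female bias in mouse kidney, so other genes with such a bias were measured beside them. All 8 had fold changes below 0, none past the threshold, with a median of −0.90. That median was −0.17 without Control library 3, and between −1.20 and −0.63 without any one of the other libraries. Kap, an androgen-regulated protein of the proximal tubule, had 8620, 11056 and 4354 CPM in DKD and 7800, 9948 and 21114 CPM in Control. Slco1a1, an androgen-dependent transporter, had 30.5, 66.4 and 33.5 CPM in DKD and 24.7, 47.3 and 422 CPM in Control.

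Control library 3 was the highest of the 6 for Kap, Slco1a1, Cyp4b1, Cyp2e1, Cyp2j13 and Cyp4a12a, and the lowest for Cyp4a14. It was the lowest Control library for Slc7a12, with 7.72, 8.98 and 3.48 CPM in DKD and 17.5, 18.6 and 5.14 CPM in Control. The same held for Prlr, the prolactin receptor, with 47.6, 17.3 and 15.5 CPM in DKD and 57.6, 59.2 and 24.5 CPM in Control. Among the other 5 libraries Cyp4b1, Cyp2j13, Cyp4a12a, Slc7a12 and Prlr did not overlap between DKD and Control, and Kap and Slco1a1 did. The Y-linked genes Ddx3y, Eif2s3y, Kdm5d and Uty were expressed in all 6 libraries and Xist was at most 0.209 CPM, so no library went against the others in sex. The part of this bias in the P450 values was not tested.

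**Figure D5:**
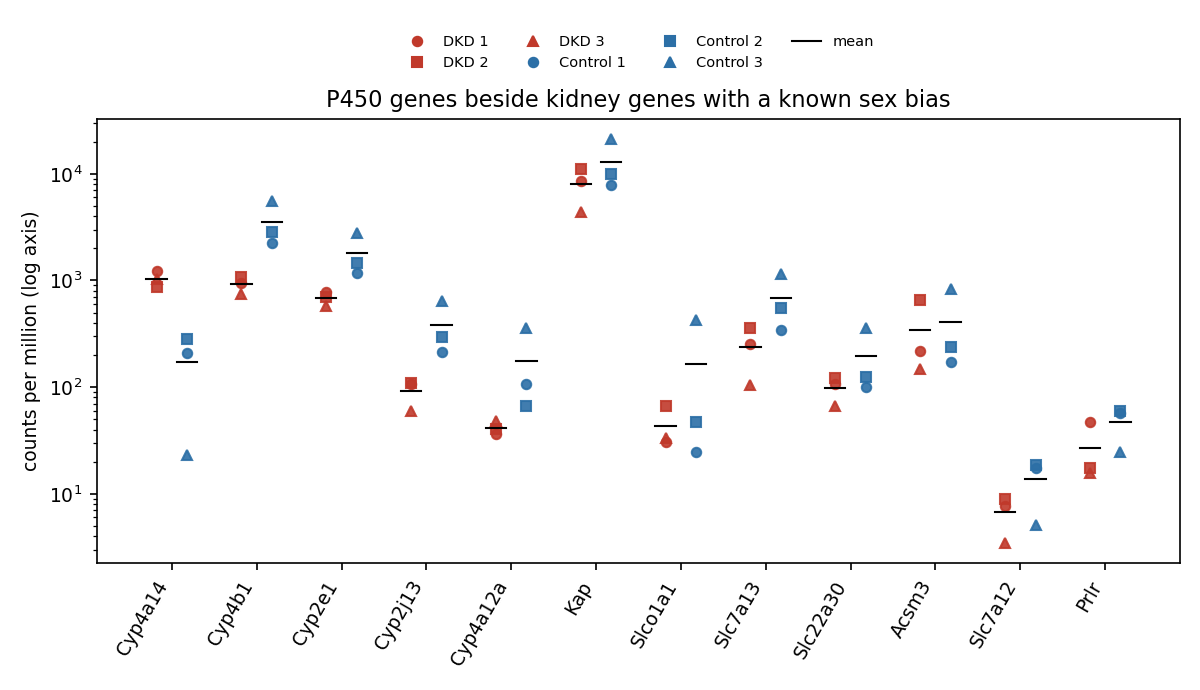
CPM of 5 P450 genes beside 7 kidney genes with a known sex bias (Kap, Slco1a1, Slc7a13, Slc22a30, Acsm3, Slc7a12 and Prlr) on a log axis, with 1 point per library, DKD (red) left of Control (blue), and a bar at the mean. Control library 3 (blue triangle) is the highest of the 6 libraries for Cyp4b1, Cyp2e1, Cyp2j13, Cyp4a12a, Kap, Slco1a1, Slc7a13, Slc22a30 and Acsm3, and the lowest Control library for Cyp4a14, Slc7a12 and Prlr.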

How the data were processed

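Polyadenylated RNA of isolated glomeruli was made into dUTP libraries and sequenced in pairs of 150 bases, per the labels' protocols. The deposited table holds the authors' unscaled read counts by Ensembl gene, and the submitters' processing notes list fastp, HISAT2, StringTie and edgeR with GRCm39. The sources used here give no versions, no annotation release and no word on strand in counting. Counts of 4 and 8 were over-represented (6267 values of 4, against 3129 of 3 and 1993 of 5), so low counts may be coverage estimates and not whole reads.

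Symbols, transcript lengths and shared 31-base words came from GENCODE M21 (GRCm38). It matched 55141 identifiers, and the 260 unmatched ones held 0.00805% of the counts. The 29 pseudogenes that the symbol rule would otherwise take were left out. Promoters came from RefSeq (GRCm38.p6). Genes on opposite strands cannot be told apart if strand was not used, and exons of genes on the other strand covered 13.5% of Cyp2f2, 10.5% of Cyp2u1 and 9.76% of Cyp4f18.

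In edgeR 4.0.16 (R 4.3.3), genes passing filterByExpr (minimum count 10) were scaled by TMM and fitted by group alone, followed by glmQLFTest and Benjamini-Hochberg adjustment. Each ± beside a fold change is a standard error. The biological coefficient of variation was 33.2%, and within-group log CPM correlations of 0.954 to 0.980 showed no duplicate library. Alternatives were scaling by RLE, by upper quartile or by library totals alone, a minimum of 1 CPM in 3 libraries, no minimum, DESeq2 1.42.0, limma-voom (limma 3.58.1), robust dispersion, a replicate block, an adjusted p under 0.1, other count limits and each library left out. On simulated data of 3 against 3 libraries, the test called 30 of 100 genes given a log2 fold of 1, 66 of 100 given a log2 fold of 2, and 10 of 19517 left as they were.

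The members, the gene lists and the tests were chosen with earlier results of these data known. The naming rule took 33 members: those past the threshold, the highest per kilobase in each tested subfamily, and up to 6 more per family by smallest p whose groups did not overlap. From each list it took up to 4 genes past the threshold, or the 2 with the smallest p. Some items it took are left out of the text. The other members are named to account for each.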

Additional observations from a re-analysis of the deposited data

How the results depend on the processing

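Of the 47 members, 3 were called. The count stayed at 3 with RLE factors, upper quartile factors, limma-voom and robust dispersion, and was 4 with the filter of 1 CPM, where Cyp2c68 was not tested. It was 6 with library totals alone (1 higher, 5 lower), a scaling that shifts the median of all genes by −0.13, 0 of 69 with no filter, 18 with DESeq2 and 11 at an adjusted p under 0.1. It ran from 0 to 6 when 1 library was left out. Over all genes the count was 228, against 516 with the 1 CPM filter, 56 with no filter, 2486 with DESeq2, 204 with limma-voom and 1 to 386 with 1 library left out. With library totals it was 275, split into 101 higher and 174 lower in place of 143 and 85. The cause was not tested. More than 5 counts in 3 libraries was met by 49 members and more than 20 by 41.

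With the replicate number as a block, 0 members and 0 genes were called. The deviations of same-numbered libraries correlated at −0.18, 0.07 and −0.22, so the numbers share no visible pairing, and the blocked fit also has fewer residual degrees of freedom.

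The adjusted p over the 15 alternatives ran from 6.77e-10 to 0.176 for Cyp4a31, from 3.73e-10 to 0.178 for Cyp2d12 and, over 14, from 2.01e-06 to 0.186 for Cyp2c68. Each passed in 8 of them. None of the 3 reversed, nor did Cyp4a10, Cyp4a14, Cyp4b1, Cyp2e1 or Cyp2j13. Reversals were seen in genes with small or imprecise changes. Cyp2c38 was at −0.59 with limma-voom, Cyp2d34 at −0.68 with limma-voom and −0.11 with the block, and Cyp2j8 at −0.18 and −0.11. With 1 library left out, the log2 fold change changed sign within these ranges: −0.94 to 3.29 for Cyp2b10, −0.14 to 0.46 for Cyp2b9, −0.13 to 1.52 for Cyp2c38, −0.20 to 0.82 for Cyp2d34, −0.40 to 0.017 for Cyp2j7, −0.61 to 0.81 for Cyp2j8, −0.34 to 0.24 for Cyp2r1, −0.011 to 0.36 for Cyp2s1, −0.33 to 6.84 for Cyp2t4, −0.17 to 0.82 for Cyp3a13, −0.38 to 0.35 for Cyp4a12b, −0.13 to 0.049 for Cyp4f13, −0.65 to 0.20 for Cyp4f39 and −0.011 to 0.38 for Cyp4v3. Low counts limit several of these, and 3 libraries per group limit all calls.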

Other observations

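P450 genes of families beyond 4, chosen after their values were seen, make or break down sterols, vitamin D, retinoids and prostanoids. The genes counted were those whose symbol is Cyp with a family number, a letter and a gene number. Tbxas1, which fell, was therefore not among them. Of the 18 in the table, 11 were tested, 0 rose and 1 fell by the edgeR test, and their median log2 fold change was −0.26. The count at an unadjusted p under 0.05 was also 1. Cyp20a1, an orphan enzyme, fell, with 9.55 ± 0.508 CPM in DKD and 20.8 ± 3.13 CPM in Control (−1.12 ± 0.15, edgeR adjusted p 0.0298). The call held without Control library 3 or DKD library 2 and was lost without any one of the other 4 libraries. Cyp24a1, which breaks down vitamin D in the kidney, had 202, 65.1 and 150 CPM in DKD and 302, 361 and 162 CPM in Control, with library 2 the lowest in DKD and the highest in Control (−0.98 ± 0.44, adjusted p 0.242).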
